A study of Mus musculus with 16 samples.

Results

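The potassium channel genes described here are the genes of the mouse whose symbol begins with Kcn, a family of pore-forming channel subunits, their accessory proteins and a few RNA genes. A gene was counted when a probe's transcript accession matched it in the RefSeq annotation of the mouse build GRCm38.p6, which gave 98 members among the 22911 genes named on the array. They were measured in primary lung fibroblasts, taken from lungs by enzymatic digestion, of mice labelled female and 8 weeks old. The 4 groups were meflin knockout cells with TGF-β1, meflin knockout cells with vehicle, wild type C57BL/6J cells with TGF-β1 and wild type cells with vehicle. Meflin is a membrane-anchored protein of fibroblasts and mesenchymal progenitors, encoded by Islr. TGF-β1, the cytokine that turns fibroblasts into contractile myofibroblasts, was recombinant and used at 5 ng/ml, and all cells were kept for 48 h with it or with vehicle. Each group had 4 arrays from experiments described as independent, 16 arrays in all. The labels give neither the knockout allele nor whether animals were pooled, so p-values measure the spread between these arrays.

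Potassium channels let potassium ions leave the cell and so hold the membrane potential, which in turn governs how much calcium enters. Their main classes are calcium- or sodium-activated channels, inward rectifiers, tandem-pore leak channels and voltage-gated channels with their accessory subunits. Smooth muscle is known for a large-conductance calcium-activated channel, built from the pore protein Kcnma1 and the accessory protein Kcnmb1, and for an ATP-sensitive channel built from the pore protein Kcnj8 and the sulfonylurea receptor Abcc9. Fibroblasts are known to carry calcium-activated and inward rectifier channels as well.

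Promoter sequences are shown for both subunits of the calcium-activated channel, which were higher with TGF-β1, for both subunits of the ATP-sensitive channel, which were lower and whose genes are neighbours on chromosome 6 with 0 genes between them, and for Kcnj2, whose direction differed between the genotypes. Each is the RefSeq window of GRCm38.p6 covering 250 bases before and 50 bases from the annotated start, printed 5′ to 3′ on the gene's own strand. The windows are chr11:33962763-33963062 on the plus strand for Kcnmb1, chr14:24004156-24004455 on the minus strand for Kcnma1, chr6:142571565-142571864 on the minus strand for Kcnj8, chr6:142702225-142702524 on the minus strand for Abcc9 and chr11:111065914-111066213 on the plus strand for Kcnj2. Capitals mark matches, on either strand, to the SMAD half-site CAGAC or the TEAD motif GGAATG.
Kcnmb1: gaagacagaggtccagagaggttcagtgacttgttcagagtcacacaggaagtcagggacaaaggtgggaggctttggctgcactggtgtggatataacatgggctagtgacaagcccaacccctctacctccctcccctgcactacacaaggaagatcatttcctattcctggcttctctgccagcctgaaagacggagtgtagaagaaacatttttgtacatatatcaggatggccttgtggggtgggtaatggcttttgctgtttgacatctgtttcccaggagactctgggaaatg
Kcnma1: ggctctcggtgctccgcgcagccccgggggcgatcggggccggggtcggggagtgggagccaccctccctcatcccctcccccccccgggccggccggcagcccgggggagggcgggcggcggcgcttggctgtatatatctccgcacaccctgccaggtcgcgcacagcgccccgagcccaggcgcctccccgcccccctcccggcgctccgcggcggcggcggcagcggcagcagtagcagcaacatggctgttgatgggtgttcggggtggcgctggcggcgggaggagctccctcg
Kcnj8: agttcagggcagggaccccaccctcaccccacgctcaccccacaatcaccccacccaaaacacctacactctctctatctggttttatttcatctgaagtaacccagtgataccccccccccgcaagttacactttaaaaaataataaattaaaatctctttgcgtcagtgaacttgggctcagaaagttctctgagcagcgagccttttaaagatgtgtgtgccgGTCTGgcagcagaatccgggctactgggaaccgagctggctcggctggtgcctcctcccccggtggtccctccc
Abcc9: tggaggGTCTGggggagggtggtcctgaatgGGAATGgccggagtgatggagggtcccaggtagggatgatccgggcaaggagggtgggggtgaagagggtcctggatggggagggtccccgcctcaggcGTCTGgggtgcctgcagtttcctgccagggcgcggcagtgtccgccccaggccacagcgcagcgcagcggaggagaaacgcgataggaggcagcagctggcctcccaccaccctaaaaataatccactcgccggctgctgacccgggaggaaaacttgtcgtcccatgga
Kcnj2: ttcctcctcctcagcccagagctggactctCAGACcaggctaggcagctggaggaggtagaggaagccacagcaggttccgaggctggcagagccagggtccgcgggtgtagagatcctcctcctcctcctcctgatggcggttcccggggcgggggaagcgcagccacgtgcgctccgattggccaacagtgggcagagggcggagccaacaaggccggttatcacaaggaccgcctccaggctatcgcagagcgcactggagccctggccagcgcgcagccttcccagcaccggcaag

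The windows of Kcnmb1 and Kcnma1 held neither motif. Those of Kcnj8 and Kcnj2 held 1 SMAD half-site each, and that of Abcc9 held 2 SMAD half-sites and 1 TEAD motif. Of the 98 members 72 had a window in the RefSeq table, 97 windows in all. The SMAD half-site was present in 56 of these 97 windows, against 49.6% of all 32851 promoter windows, and the TEAD motif in 14 of 97, against 14.7%. The CArG box, the motif of serum response factor, was found in 0 of the 97 windows and in 1.63% of all windows. These are letter matches within short windows and say nothing of binding.

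Before scaling, the 75th percentile of intensity per array lay at 382 to 446 in knockout cells with TGF-β1, 470 to 519 in knockout cells with vehicle, 429 to 452 in wild type cells with TGF-β1 and 486 to 526 in wild type cells with vehicle, so the TGF-β1 arrays were dimmer in both genotypes. The lowest correlation between arrays of 1 group was 0.996 over the 15394 genes tested. The median SD within a group was 0.139 to 0.146 log2 units over the tested Kcn genes and 0.0715 to 0.0856 over all tested genes. Islr was measured by 1 probe and did not rise above the background limit on the 8 knockout arrays, whose log2 signals were 1.65 to 1.82 with TGF-β1 and 1.34 to 1.68 with vehicle. On the wild type arrays it was 8.23 to 8.42 with TGF-β1 and 10.75 to 10.88 with vehicle. All 8 fibroblast markers passed the background filter described next. The 10 smooth muscle, 10 pericyte, 8 endothelial, 8 macrophage and leukocyte and 6 mesothelial markers all passed it too. Of the epithelial markers 6 of 8 passed, and of the Schwann cell and neuronal markers 7 of 8. The epithelial markers Epcam and Nkx2-1 and the neuronal marker Elavl3 failed it.

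Signals are log2 intensities after each array was shifted to a common 75th percentile. A gene was tested when at least 1 of its probes lay well above background, as the scanner software judged it, on all 4 arrays of at least 1 group, and its brightest such probe stood for it. By that rule 51 of the 98 members were tested and 47 were not. The 51 comprised 8 of 12 calcium- or sodium-activated members, 7 of 15 inward rectifiers, 8 of 14 tandem-pore members, 19 of 40 voltage-gated pore subunits, 8 of 13 accessory subunits and 1 of 4 RNA genes. Of the 47 others, 38 were well above background on no array with any probe. The remaining 9 passed on at least 1 array, among them Kcne1, Kcne2, Kcng4, Kcnip2 and Kcnj11. Because a member that passed through 1 group alone had to differ, counts below are over the 51 that passed and do not describe all 98. Kcnk1 passed through knockout cells with TGF-β1 alone, Kcnma1 through wild type cells with TGF-β1 alone, Kcnmb1 through TGF-β1 groups alone, Kcnc1 and Kcnc4 through wild type cells with vehicle alone, and Kcne1l, Kcnj13, Kcnk3 and Kcnk5 through vehicle groups alone. A difference in that direction was built into the choice of these 9 genes, so a p-value in that direction is no support for it.

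The number of members well above background on all 4 arrays was 39 in knockout cells with TGF-β1, 46 in knockout cells with vehicle, 44 in wild type cells with TGF-β1 and 48 in wild type cells with vehicle. On all 16 arrays 37 members were measured, among them Kcnj8, Kcnj2, Kcnd3, Kcns3, Kcnh1, Kcnk13, Kcne4 and Kcnn4. Kcna1 and Kcnq1 were well above background on 0 of 4 knockout TGF-β1 arrays and on all 4 arrays of every other group. Kcnmb1 was measured on all 8 TGF-β1 arrays, on 1 of 4 knockout vehicle arrays and on 0 of 4 wild type vehicle arrays. Kcnma1 was measured on 2 of 4 knockout TGF-β1 arrays, 0 of 4 knockout vehicle arrays, 4 of 4 wild type TGF-β1 arrays and 0 of 4 wild type vehicle arrays. Kcnk1 was measured on all 4 knockout TGF-β1 arrays and on 0, 0 and 1 of 4 arrays in knockout vehicle, wild type TGF-β1 and wild type vehicle cells. Kcnc1 and Kcnc4 were measured on 0 of 4 TGF-β1 arrays in either genotype, on 3 of 4 knockout vehicle arrays and on 4 of 4 wild type vehicle arrays.

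**Figure D1:**
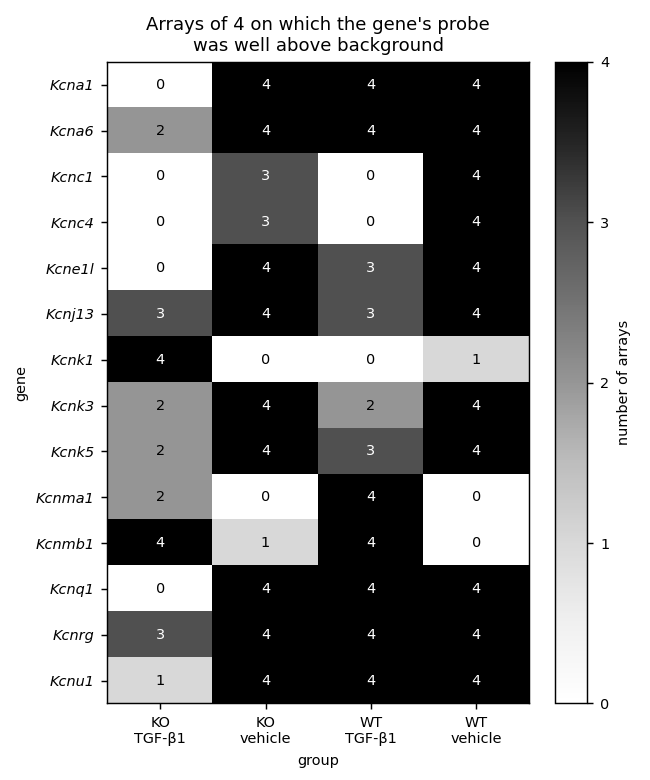
Number of arrays, of 4 per group, on which the probe of each gene was well above background, for the 14 tested Kcn genes that did not pass on all 16 arrays. Columns are the 4 groups; Kcnmb1 passed on 4, 1, 4 and 0 arrays from left to right, and Kcna1 on 0, 4, 4 and 4.

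The first comparison asked what TGF-β1 changed in meflin knockout cells. Differences were tested with limma, with p-values adjusted by the Benjamini-Hochberg method over all 15394 genes, and adjusted p under 0.05 counts as changed. In knockout cells with TGF-β1, against knockout cells with vehicle, 15 of the 51 Kcn genes rose and 27 fell, 42 in all, where 82.6% of all tested genes changed, 46.6% up and 35.9% down. The share of Kcn genes that changed, 82.4%, was thus near the background. Of the 42, 21 changed at least 2-fold, 6 up and 15 down, 41.2% of the 51 where 23.1% of all genes did, 9.58% up and 13.6% down. Of these 21, 10 had an array below the background limit in a compared group, and for 2 of them, Kcnc4 and Kcnma1, no fold can be given. The median log2 difference was −0.31 over the Kcn genes and 0.10 over all genes. The 37 members measured on all 16 arrays had a median of −0.16, with 12 higher and 17 lower. At least 2-fold changes were 11 of these 37, 4 up and 7 down, or 29.7%, where 19.4% of the 13954 genes measured on all 16 arrays changed as much.

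The same comparison in wild type cells gave a like split at smaller sizes. With TGF-β1, against vehicle, 14 Kcn genes rose and 24 fell, 38 in all or 74.5%, where 68.6% of all genes changed, 41.3% up and 27.3% down. At least 2-fold changes numbered 10, 4 up and 6 down, 19.6% of the 51 where 9.71% of all genes did, 3.26% up and 6.45% down. Kcnma1 and Kcnc1 are among the 10 by their fitted difference, while their lower limits are under 2-fold. Of the 37 members measured on all 16 arrays 3 changed at least 2-fold, or 8.11%, where 6.7% of the genes measured on all 16 arrays did, and the other 7 had an array below the background limit in some group. The median log2 difference was −0.27 over the Kcn genes and 0.08 over all genes. Changed in both genotypes were 34 members, of which 10 were higher with TGF-β1 in both, 22 lower in both and 2, Kcnj2 and Kcnip3, lower in knockout cells and higher in wild type cells. Among all 15394 genes tested, 9612 changed in both genotypes. Of these, 5390 were higher in both, 3612 lower in both and 610 changed in opposite directions.

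The sizes of these changes depended on the background correction. With normexp, which adds an offset to every spot, the fold was smaller by over 1.5 times for 21 of the 42 Kcn genes called with TGF-β1 in knockout cells and for 9 of the 38 in wild type cells. Of these calls, 38 and 34 held in the same direction with normexp, while 10 of 21 and 2 of 10 stayed past 2-fold. Lower limits given below hold for the main processing alone, and normexp values are given beside the genes they move.

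**Figure D2:**
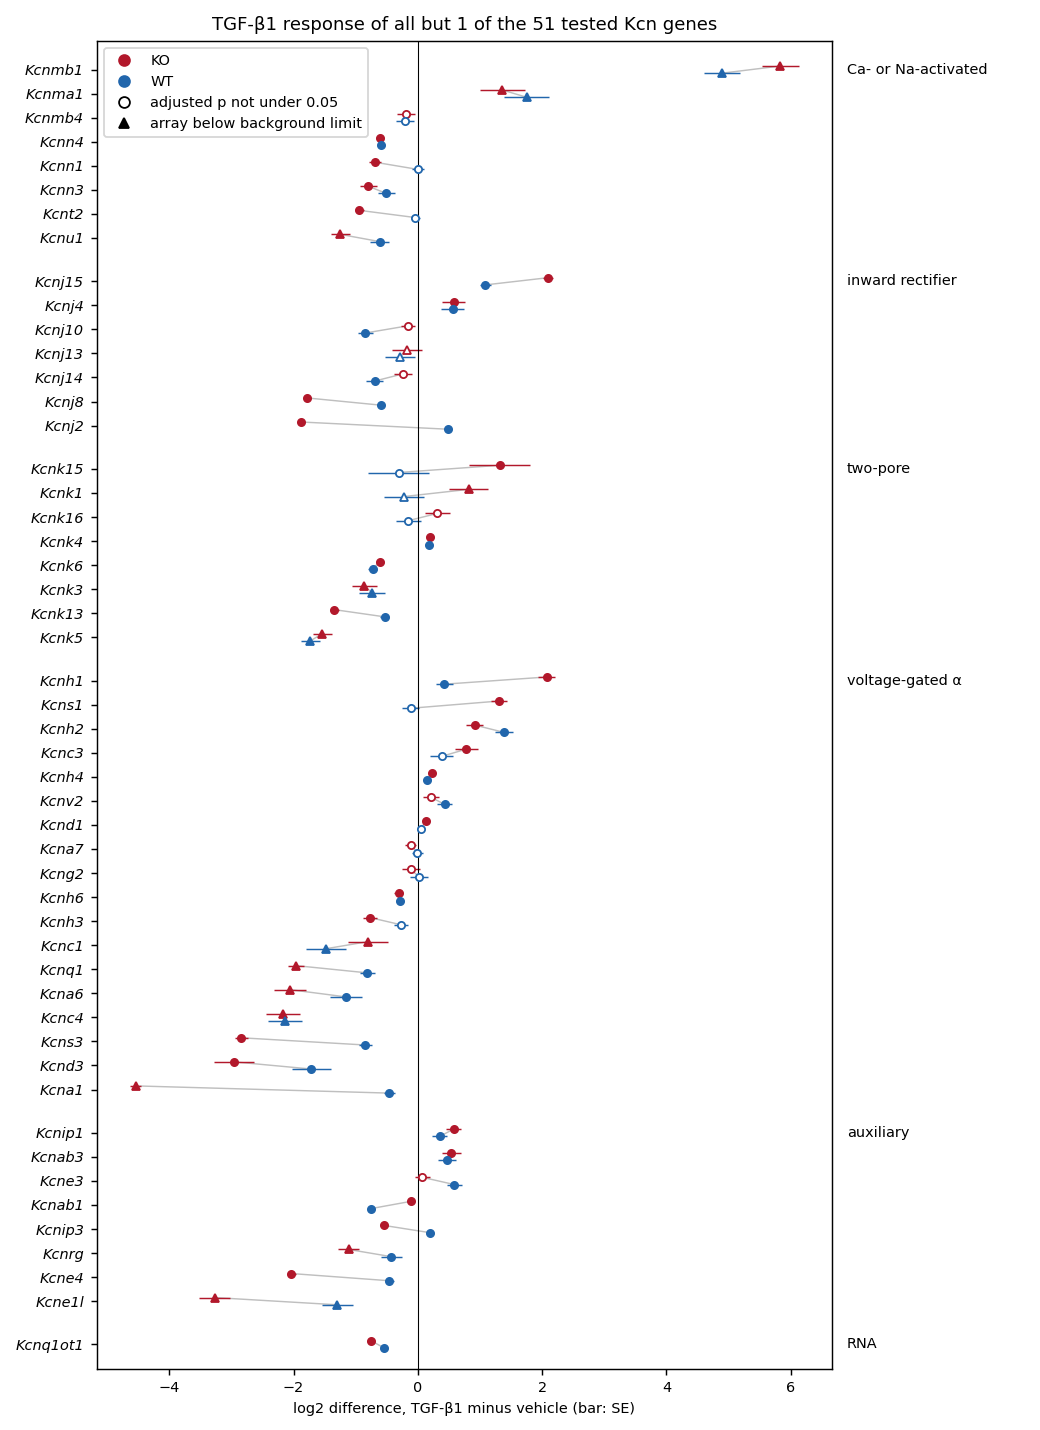
Log2 difference, TGF-β1 minus vehicle, of all but 1 of the 51 tested Kcn genes in knockout (red) and wild type (blue) cells, grouped by channel class. Bars are standard errors, triangles mark differences with an array below the background limit in a compared group, and open symbols mark adjusted p not under 0.05. Most filled symbols lie left of 0; the outermost, Kcnmb1 on the right and Kcna1 in knockout cells on the left, are triangles.

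Kcnmb1, the smooth muscle accessory subunit of the calcium-activated channel, had the largest rise of the 51 tested Kcn genes in both genotypes. Its log2 signal was 9.25, 9.06, 9.23 and 9.09 in knockout cells with TGF-β1, against 3.25, 3.86, 2.58 and 3.60 in knockout cells with vehicle. In wild type cells it was 7.21, 7.01, 7.20 and 7.17 with TGF-β1, against 2.13, 2.69, 2.88 and 1.33 with vehicle. The TGF-β1 and vehicle arrays did not overlap in either genotype, and all knockout TGF-β1 arrays lay above all wild type TGF-β1 arrays. Taking the dimmest measurable signal as the floor, Kcnmb1 was at least 41.7-fold higher with TGF-β1 in knockout cells and at least 11.4-fold higher in wild type cells. Since it passed the background filter through TGF-β1 groups alone, no p-value is given for these rises. Under TGF-β1 it was 4.03-fold higher in knockout than in wild type cells (log2 difference 2.01 ± 0.29 SE, limma adjusted p = 1.97e-05). With normexp the rises were 9.25-fold and 3.44-fold. The fitted difference between the genotypes' responses was 0.94 ± 0.41 and did not pass (limma adjusted p = 0.063). It passed under quantile normalization (1.00, limma adjusted p = 0.0377), with normexp background correction (1.43, 2.35e-12), in the authors' deposited value table (1.01, 0.0238) and without knockout vehicle replicate 2 (1.12, 0.0312) or wild type vehicle replicate 4 (1.25, 0.00482). All of these values subtract vehicle signals of which 1 of 8 was well above background, so they are no measured difference between the responses.

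Kcnma1, the pore of the same channel, was higher with TGF-β1 in both genotypes, and none of its vehicle arrays was well above background. Its log2 signals were 4.29, 4.46, 3.77 and 4.12 in knockout cells with TGF-β1, against 2.89, 3.39, 3.47 and 1.46 with vehicle. The wild type arrays read 4.73, 4.64, 4.18 and 4.59 with TGF-β1, against 3.03, 2.07, 3.30 and 2.75 with vehicle. Treated and vehicle arrays did not overlap in either genotype. No fold is given in knockout cells, where 2 of 4 treated and 0 of 4 vehicle arrays were well above background. The gene was in wild type cells at least 1.86-fold higher with TGF-β1, and 1.39-fold with normexp. It passed the background filter through that group alone, so no p-value over all arrays is given. Within the second slide alone it did not pass in wild type cells (limma adjusted p = 0.106). Under TGF-β1, knockout and wild type cells overlapped in Kcnma1 (limma adjusted p = 0.376).

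Markers of smooth muscle and myofibroblasts moved with these subunits: of 10 list members, 9 rose and 1 fell with TGF-β1 in knockout cells, and 8 rose and 1 fell in wild type cells. Their summed level, as log2, was 19.42 to 19.59 in knockout cells with TGF-β1, 16.77 to 16.88 in knockout cells with vehicle, 18.66 to 18.77 in wild type cells with TGF-β1 and 16.60 to 16.80 in wild type cells with vehicle. All 10 passed the background filter. Their part in the Kcnmb1 difference was not tested. For comparison, 46.6% of all tested genes rose and 35.9% fell in knockout cells, and 41.3% rose and 27.3% fell in wild type cells. In whole cultures, a change in the number of cells of a type and a change in RNA per cell cannot be told apart. Kcnmb1 also lies inside the span of Kcnip1 on the opposite strand of chromosome 11, and Kcnip1, a calcium-binding subunit, had log2 differences of 0.57 and 0.35 with TGF-β1 in knockout and wild type cells.

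The other calcium- or sodium-activated members fell or did not pass. Kcnn4, the intermediate-conductance calcium-activated channel of fibroblasts and leukocytes, averaged 9.71 ± 0.08 with TGF-β1 and 10.32 ± 0.08 with vehicle in knockout cells (SD, n = 4 each). Wild type cells averaged 9.99 ± 0.09 and 10.58 ± 0.12. It fell by 0.61 in knockout and 0.59 in wild type cells on the log2 scale (limma adjusted p = 4.34e-07 and 1.25e-06), and treated and vehicle arrays did not overlap. Kcnn3, a small-conductance calcium-activated channel, fell by 0.80 and 0.50 (limma adjusted p = 7.00e-05 and 0.00436), and by 0.20 in knockout cells with normexp. The small-conductance channel Kcnn1 and the sodium-activated channel Kcnt2 fell in knockout cells, by 0.69 and 0.94, with differences of 0.00 and −0.04 in wild type cells that did not pass. With normexp their knockout falls were 0.10, which did not pass, and 0.17 (limma adjusted p = 0.0643 and 0.00241). Their responses differed between the genotypes by −0.69 and −0.90 (limma adjusted p = 0.000398 and 2.21e-06). With normexp these differences in response were −0.14, which did not pass, and −0.23 (limma adjusted p = 0.0991 and 0.00693). Kcnmb4, another accessory subunit of the large-conductance channel, did not pass in either genotype by its brightest probe, at −0.19 in knockout cells, while its other kept probe gave −1.44 there. Macrophage markers moved in the same direction as Kcnn4, which leukocytes also carry: of 8, 6 fell and 1 rose with TGF-β1 in knockout cells and 6 fell in wild type cells. The summed macrophage level was 15.25 to 15.36 with TGF-β1 and 16.16 to 16.23 with vehicle in knockout cells, and 15.67 to 15.75 with TGF-β1 and 16.37 to 16.62 with vehicle in wild type cells. Their part in the Kcnn4 difference was not tested. The shares of all genes that rose and fell were 46.6% and 35.9% in knockout cells and 41.3% and 27.3% in wild type cells.

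Among the inward rectifiers, Kcnj8, the pore of the ATP-sensitive channel of smooth muscle and pericytes, fell in both genotypes and further in knockout cells. On the log2 scale it read 8.93, 8.75, 9.00 and 8.80 in knockout cells with TGF-β1, against 10.66, 10.64, 10.65 and 10.66 with vehicle. Wild type cells gave 9.70, 9.80, 9.78 and 9.78 with TGF-β1, against 10.50, 10.31, 10.32 and 10.31 with vehicle. The 4 groups did not overlap: knockout vehicle was highest, then wild type vehicle, wild type TGF-β1 and knockout TGF-β1. The gene was 3.44-fold lower with TGF-β1 in knockout cells and 1.51-fold lower in wild type cells (limma adjusted p = 1.81e-13 and 1.83e-07). Its responses differed by −1.18 ± 0.08 (limma adjusted p = 8.72e-09).

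Abcc9, the sulfonylurea receptor that pairs with Kcnj8, ran the same way. Its log2 signal was 4.13, 3.95, 3.58 and 2.24 in knockout cells with TGF-β1, of which 1 of 4 was well above background, against 7.11, 7.25, 7.07 and 6.95 with vehicle. Its signals in wild type cells were 5.45, 5.19, 5.57 and 5.11 with TGF-β1, against 7.15, 7.14, 7.24 and 7.32 with vehicle. Treated and vehicle arrays did not overlap in either genotype. It fell with TGF-β1 by at least 8.05-fold in knockout cells and 3.68-fold in wild type cells (limma adjusted p = 1.41e-08 and 3.87e-05), and the responses differed by −1.74 ± 0.41 (limma adjusted p = 0.00207), a value that includes arrays below the background limit. Pericyte markers, a list of 10 that includes Abcc9, did not fall as a group: 5 rose and 4 fell in knockout cells, 4 rose and 4 fell in wild type cells. Their summed level was 15.10 to 15.20 with TGF-β1 and 14.95 to 15.02 with vehicle in knockout cells, and 15.17 to 15.32 and 14.84 to 14.91 in wild type cells. Among all tested genes 46.6% rose and 35.9% fell in knockout cells, against 41.3% and 27.3% in wild type cells.

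Kcnj2, the classical inward rectifier that sets the resting potential, changed in opposite directions. Its log2 signals were 7.86, 8.04, 7.94 and 7.90 in knockout cells with TGF-β1, against 9.76, 9.81, 9.86 and 9.84 with vehicle. In wild type cells it was 10.11, 10.07, 10.09 and 10.16 with TGF-β1, against 9.57, 9.54, 9.71 and 9.68 with vehicle. Every treated array lay below every vehicle array in knockout cells and above every vehicle array in wild type cells. It was 3.69-fold lower with TGF-β1 in knockout cells and 1.40-fold higher in wild type cells (limma adjusted p = 1.46e-14 and 3.13e-07), and the responses differed by −2.37 ± 0.07 (limma adjusted p = 1.18e-12). The second kept probe of Kcnj2 gave −1.69 in knockout and 0.35 in wild type cells.

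Kcnj15, an inward rectifier known from kidney and other epithelia, rose in both genotypes. On the log2 scale it read 7.62, 7.71, 7.69 and 7.74 in knockout cells with TGF-β1, against 5.82, 5.51, 5.46 and 5.57 with vehicle. The wild type arrays read 6.16, 6.24, 6.35 and 6.26 with TGF-β1, against 5.13, 5.07, 5.39 and 5.06 with vehicle. No treated array overlapped a vehicle array. The rise was 4.28-fold in knockout and 2.13-fold in wild type cells (limma adjusted p = 2.51e-12 and 1.77e-08), and the responses differed by 1.01 ± 0.12 (limma adjusted p = 3.07e-06). With normexp the knockout rise was 2.55-fold. Kcnj10, the rectifier of glia and kidney, averaged 5.80 ± 0.07 with TGF-β1 and 5.96 ± 0.09 with vehicle in knockout cells, and 5.28 ± 0.29 and 6.12 ± 0.18 in wild type cells (SD, n = 4 each). It fell by 0.84 in wild type cells (limma adjusted p = 1.49e-05), with a difference of −0.16 in knockout cells that did not pass (0.225), and the responses differed by 0.69 ± 0.17 (limma adjusted p = 0.00264).

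**Figure D3:**
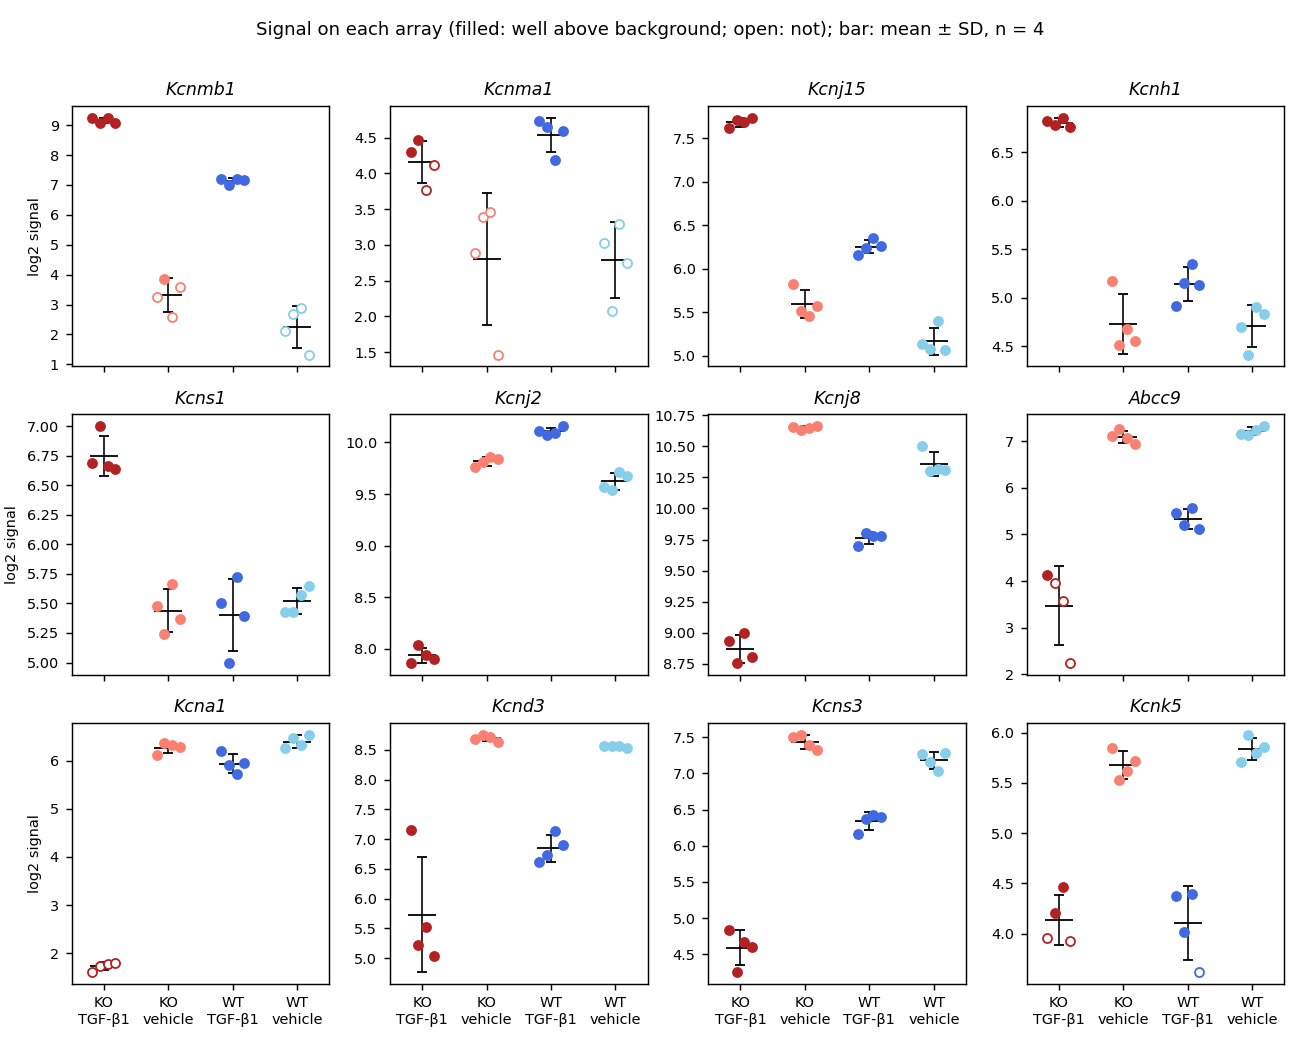
Log2 signal on every array for 11 Kcn genes and Abcc9 in the 4 groups, with filled points well above background, open points not, and bars showing the mean ± SD of 4 arrays. Kcnj2 is lowest in knockout cells with TGF-β1 and highest in wild type cells with TGF-β1, Kcnmb1 is high in both TGF-β1 groups, and Kcnd3 has 1 knockout TGF-β1 array at 7.15 above the other three.

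Of the tandem-pore channels, which carry leak currents, 3 rose and 4 fell with TGF-β1 in knockout cells and 1 rose and 4 fell in wild type cells. These are 87.5% and 62.5% of the 8 tested, near the 82.6% and 68.6% of all genes. Kcnk5, an acid-sensitive channel, was 3.96, 4.21, 4.46 and 3.93 in knockout cells with TGF-β1, against 5.85, 5.52, 5.62 and 5.72 with vehicle. Wild type cells gave 4.37, 4.02, 4.40 and 3.62 with TGF-β1, against 5.71, 5.98, 5.80 and 5.85 with vehicle. The treated arrays of both genotypes lay below all vehicle arrays and overlapped each other. With 2 of 4 treated arrays well above background in knockout cells and 3 of 4 in wild type cells, its signal was lower by at least 2.82-fold in knockout cells and by at least 3.07-fold in wild type cells. It passed the background filter through vehicle groups alone, so no p-value is given. With normexp the falls were 1.25-fold and 1.36-fold.

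Kcnk6, a leak channel widely made across tissues, averaged 9.19 ± 0.03 with TGF-β1 and 9.80 ± 0.09 with vehicle in knockout cells, and 9.35 ± 0.10 and 10.07 ± 0.16 in wild type cells (SD, n = 4 each). Its falls were 1.53-fold and 1.65-fold (limma adjusted p = 1.23e-06 and 3.68e-07). Of the 2 probes of Kcnk6, 1 passed the background filter. The authors' deposited value table holds another probe of Kcnk6, not kept here, which gave 1.05 in knockout cells (limma adjusted p = 0.00192). Kcnk13, a channel also known from microglia, fell 2.54-fold in knockout and 1.45-fold in wild type cells (limma adjusted p = 9.03e-11 and 8.32e-06), and its responses differed by −0.81 ± 0.10 (limma adjusted p = 6.75e-06). Kcnk1, a weakly conducting channel that recycles through endosomes, was 4.56, 4.70, 4.66 and 4.46 in knockout cells with TGF-β1, against 3.46, 3.33, 3.61 and 2.18 in wild type cells with TGF-β1. These did not overlap, and the gene was at least 1.64-fold higher in knockout cells, or 1.31-fold with normexp. Since it passed the background filter through that group alone, no p-value is given. Kcnk15, named after its values were seen, was 7.95, 5.39, 5.20 and 4.95 in knockout cells with TGF-β1, against 4.32, 4.82, 4.37 and 4.71 with vehicle. Its log2 difference of 1.31 ± 0.50 (limma adjusted p = 0.0237) was 0.62 without replicate 1 of the treated group (0.0273) and 0.35 with normexp. It did not pass without knockout vehicle replicate 1 (1.24, limma adjusted p = 0.0530) or replicate 3 (1.25, 0.0503).

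The voltage-gated pore subunits held the deepest fall. Of 19 tested, 6 rose and 10 fell with TGF-β1 in knockout cells, and 4 rose and 9 fell in wild type cells, 84.2% and 68.4% of them and so near the shares of all genes. Kcna1, a delayed rectifier best known from axons, had a log2 signal of 1.61, 1.73, 1.78 and 1.79 in knockout cells with TGF-β1, none of them well above background, against 6.12, 6.36, 6.31 and 6.28 with vehicle. Its signals in wild type cells were 6.19, 5.91, 5.72 and 5.94 with TGF-β1, against 6.25, 6.47, 6.32 and 6.53 with vehicle. The knockout TGF-β1 arrays stood apart from the 12 others. Kcna1 was at least 4.70-fold lower with TGF-β1 in knockout cells (limma adjusted p = 1.14e-15 for the fitted difference) and 1.37-fold lower in wild type cells (0.000368). Under TGF-β1 it was at least 3.74-fold lower in knockout than in wild type cells, and the responses differed by −4.08 ± 0.13 (limma adjusted p = 3.59e-12), a value that includes arrays below the background limit. With normexp the knockout fall was 2.09-fold, under the lower limit of the main processing, and the responses differed by −0.91.

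Kcnd3, the pore of a transient A-type current, had log2 signals of 7.15, 5.22, 5.53 and 5.04 in knockout cells with TGF-β1, against 8.68, 8.75, 8.71 and 8.63 with vehicle. In wild type cells it was 6.62, 6.73, 7.13 and 6.90 with TGF-β1, against 8.56, 8.57, 8.57 and 8.54 with vehicle. All treated arrays lay below all vehicle arrays in both genotypes, and replicate 1 of the knockout TGF-β1 group lay above the wild type TGF-β1 arrays while the other three lay below them. The gene was 7.78-fold lower in knockout and 3.28-fold lower in wild type cells (limma adjusted p = 4.90e-07 and 0.000234), and 4.01-fold lower in knockout cells with normexp. Its responses differed by −1.25 (limma adjusted p = 0.0285), or −0.79 with normexp. That difference did not pass without knockout TGF-β1 replicate 2, 3 or 4 or wild type TGF-β1 replicate 3 (−1.18 to −1.02, limma adjusted p = 0.0524 to 0.0599). Kcns3, a modifier subunit that is silent alone and joins other pore subunits, was 4.84, 4.26, 4.67 and 4.61 in knockout cells with TGF-β1, against 7.50, 7.53, 7.39 and 7.32 with vehicle. The wild type arrays read 6.16, 6.38, 6.43 and 6.39 with TGF-β1, against 7.27, 7.16, 7.03 and 7.28 with vehicle. The falls were 7.17-fold and 1.80-fold without overlap, and they differed by −2.00 ± 0.15 (limma adjusted p = 2.97e-08). With normexp the knockout fall was 2.32-fold and the responses differed by −0.72.

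Amigo1, an adhesion protein from the list of channel partners, was lower with TGF-β1 in both genotypes. It averaged 5.30 ± 0.22 with TGF-β1 and 7.51 ± 0.11 with vehicle in knockout cells, and 6.78 ± 0.21 and 7.26 ± 0.10 in wild type cells (SD, n = 4 each). It fell 4.63-fold and 1.40-fold (limma adjusted p = 6.03e-11 and 0.00145), and its responses differed by −1.73 ± 0.16 (limma adjusted p = 3.19e-07). Kcns1, the other modifier subunit described here, went the other way in knockout cells. Its log2 signal was 6.69, 7.00, 6.66 and 6.64 in knockout cells with TGF-β1, against 5.48, 5.24, 5.67 and 5.37 with vehicle, with no overlap. Wild type cells gave 5.51, 4.99, 5.72 and 5.40 with TGF-β1, against 5.43, 5.43, 5.57 and 5.65 with vehicle, which overlapped. It rose 2.48-fold in knockout cells (limma adjusted p = 2.53e-07), and the responses differed by 1.42 ± 0.19 (limma adjusted p = 1.41e-05), or 0.71 with normexp.

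Kcnh1, the ether-à-go-go channel of neurons and many tumours, rose mainly in knockout cells. Its log2 signals were 6.83, 6.78, 6.86 and 6.76 in knockout cells with TGF-β1, against 5.18, 4.51, 4.67 and 4.56 with vehicle. Its signals in wild type cells were 4.92, 5.15, 5.35 and 5.14 with TGF-β1, against 4.70, 4.41, 4.91 and 4.83 with vehicle. Treated arrays lay above vehicle arrays in both genotypes. The rise was 4.22-fold in knockout and 1.34-fold in wild type cells (limma adjusted p = 1.35e-09 and 0.0124), and the responses differed by 1.65 ± 0.19 (limma adjusted p = 3.96e-06). With normexp the knockout rise was 2.01-fold and the responses differed by 0.78. Kcnh2, the ERG channel of cardiac repolarization, rose by 0.91 ± 0.14 in knockout and 1.38 ± 0.14 in wild type cells (limma adjusted p = 2.33e-05 and 5.34e-07), and the difference between those, −0.47 ± 0.20, did not pass (0.057). Its wild type rise was 0.71 with normexp. The second kept probe of Kcnh2 gave 1.25 in knockout and 0.91 in wild type cells, so which genotype rose more depends on the probe.

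Kcnq1, the pore of a slow delayed rectifier, was at least 3.61-fold lower with TGF-β1 in knockout cells, where 0 of 4 treated arrays were well above background, and 1.76-fold lower in wild type cells (limma adjusted p = 6.80e-10 and 2.80e-05), and 1.34-fold lower in knockout cells with normexp. Its antisense partner Kcnq1ot1 overlaps it on chromosome 7 and also fell, by 0.75 and 0.54. Kcnc4, a fast channel of the Shaw class, was 1.96, 1.87, 2.01 and 1.93 in knockout cells with TGF-β1, against 4.38, 4.34, 4.20 and 3.53 with vehicle. In wild type cells it was 3.53, 2.89, 3.13 and 1.96 with TGF-β1, against 4.68, 5.40, 5.11 and 4.87 with vehicle. No treated array was well above background in either genotype, and no treated array overlapped a vehicle array. It was at least 2.20-fold lower in wild type cells, or 1.29-fold with normexp. No fold is given in knockout cells, where 0 of 4 treated and 3 of 4 vehicle arrays were well above background. Kcnc1, of the same class, was 3.63, 2.86, 2.75 and 2.01 in wild type cells with TGF-β1, against 4.90, 3.92, 4.44 and 3.93 with vehicle, at least 1.34-fold lower, or 1.11-fold with normexp. Kcnc4 and Kcnc1 passed the background filter through wild type cells with vehicle alone, so no p-values are given for these falls.

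Of the 8 tested accessory subunits, 2 rose and 5 fell with TGF-β1 in knockout cells, and 4 rose and 4 fell in wild type cells. These are 87.5% and 100% of the 8, where 82.6% and 68.6% of all genes changed. Kcne1l, a single-span subunit that damps voltage-gated channels, was 1.60, 2.88, 2.10 and 3.11 in knockout cells with TGF-β1, none well above background, against 5.44, 5.60, 5.93 and 5.79 with vehicle. The wild type arrays read 4.05, 3.65, 3.93 and 4.20 with TGF-β1, of which 3 of 4 were well above background, against 5.28, 5.17, 5.33 and 5.24 with vehicle. The treated arrays lay below the vehicle arrays in both genotypes. The falls were at least 3.15-fold and at least 2.40-fold, without p-values because the gene passed the background filter through vehicle groups alone. The responses differed by −1.97 ± 0.35 (limma adjusted p = 0.000232), a value that includes arrays below the background limit. With normexp the falls were 1.54-fold and 1.26-fold and the responses differed by −0.29.

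Kcne4, another single-span inhibitory subunit, averaged 8.57 ± 0.13 with TGF-β1 and 10.61 ± 0.08 with vehicle in knockout cells, and 10.02 ± 0.08 and 10.48 ± 0.11 in wild type cells (SD, n = 4 each). It was well above background on all 16 arrays and fell 4.11-fold and 1.38-fold (limma adjusted p = 7.08e-13 and 3.80e-05), with responses that differed by −1.58 ± 0.10 (limma adjusted p = 5.94e-09). Kcnab1, a cytoplasmic subunit, fell by 0.75 in wild type cells (limma adjusted p = 9.76e-10), and its responses differed by 0.64 ± 0.06 (5.57e-07). Kcnip3, a calcium-binding protein that also acts as a repressor in the nucleus, was 8.07, 7.77, 7.96 and 8.00 in knockout cells with TGF-β1, against 8.47, 8.47, 8.53 and 8.53 with vehicle. Wild type cells gave 8.34, 8.48, 8.58 and 8.38 with TGF-β1, against 8.31, 8.22, 8.21 and 8.29 with vehicle. It fell by 0.55 in knockout cells and was 0.19 higher in wild type cells without overlap (limma adjusted p = 7.97e-07 and 0.0132). The wild type difference was 0.15 without TGF-β1 replicate 3 (0.0505). The second kept probe of Kcnip3 gave 0.04 in knockout and 1.14 in wild type cells, so the opposite directions rest on the brighter probe.

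Endothelial markers fell with TGF-β1 beside these genes, 8 of 8 in each genotype. Their summed level was 11.97 to 12.13 with TGF-β1 and 13.19 to 13.23 with vehicle in knockout cells, and 12.45 to 12.57 and 13.29 to 13.34 in wild type cells; their part in any Kcn difference was not tested. Of the Schwann cell and neuronal markers, 2 of 7 rose and 5 fell in knockout cells, and 1 rose and 5 fell in wild type cells. Of the mesothelial markers, 1 of 6 rose and 4 fell in knockout cells, and 2 rose and 3 fell in wild type cells. Among 6 tested epithelial markers, 4 rose and 2 fell in knockout cells and 3 rose and 2 fell in wild type cells. Of 8 fibroblast markers 4 rose and 4 fell in knockout cells and 5 rose and 3 fell in wild type cells. Of all tested genes, 46.6% rose and 35.9% fell in knockout cells, against 41.3% and 27.3% in wild type cells.

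The third comparison set knockout against wild type cells, both with TGF-β1. In knockout cells 10 Kcn genes were higher and 23 lower than in wild type cells, 33 in all or 64.7%, where 70.2% of all tested genes differed, 39.7% higher and 30.5% lower. At least 2-fold differences numbered 15, 6 higher and 9 lower, 29.4% of the 51 where 10.3% of all genes did, 3.32% higher and 7% lower. Of the 37 members measured on all 16 arrays 9 differed at least 2-fold, or 24.3%, where 7.87% of the genes measured on all 16 arrays did. With normexp 3 of the 15 stayed past 2-fold. The median log2 difference was −0.15 over the Kcn genes and 0.06 over all genes. The Kcn median was −0.17 under quantile normalization and −0.18 in the authors' deposited value table. It was 0.02 with normexp and 0.03 with no filter on dim probes, so its sign depends on the processing. With normexp background correction 17 of 36 called members were higher, as were 10 of 24 in the authors' deposited value table. These are 47.2% and 41.7%, where 61.8% and 47.1% of all called genes were higher. Measured on every array of both groups and higher by at least 2-fold in knockout cells were Kcnmb1, Kcnj15, Kcnk15, Kcns1 and Kcnh1, with log2 differences of 2.01, 1.43, 1.35, 1.34 and 1.67. The sixth gene counted, Kcnk1, was at least 1.64-fold higher, as stated above. Among the genes so measured, Kcnj2 at −2.17 and Kcns3 at −1.74 were lowest (limma adjusted p = 2.02e-14 and 1.14e-09), and with normexp Kcns3 was at −0.57. Kcna1, on 0 of 4 knockout arrays well above background, has the lower limit given above. For Kcne1l, with 0 of 4 knockout and 3 of 4 wild type arrays well above background, no fold is given, and with normexp the difference was −0.01 (limma adjusted p = 0.870). Kcnk15 did not pass without wild type TGF-β1 replicate 2 (1.30, limma adjusted p = 0.0512) or replicate 3 (1.22, 0.0627), and was 0.66 without knockout TGF-β1 replicate 1 (0.0245). Kcnj8 was 1.86-fold lower in knockout cells (limma adjusted p = 1.75e-09) and Abcc9 at least 2.37-fold lower (4.03e-05).

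Without TGF-β1 the genotypes differed little in these genes. With vehicle, 5 Kcn genes were higher and 4 lower in knockout than in wild type cells, 9 in all or 17.6%, where 13.2% of all tested genes differed, 7.06% higher and 6.16% lower. Higher were Kcnj15, Kcnj8, Kcnip3 and Kcnj2, with log2 differences of 0.42, 0.29, 0.24 and 0.19, and Kcnmb1 counted as the fifth. Lower were Kcnc4, Kcnn3, Kcnk6 and Kcnn4, with −0.90, −0.46, −0.27 and −0.26. Kcnc4 aside, adjusted p-values by limma ran from 0.00285 for Kcnj8 to 0.0397 for Kcnn3. By the fitted difference 1 member was past 2-fold, Kcnmb1, where 0.312% of all genes were, 0.065% higher and 0.247% lower. Of its 8 vehicle arrays 1, in knockout cells, was well above background and the groups overlapped, so this is no measured difference, and 0 of the 37 members measured on all 16 arrays were past 2-fold. For Kcnc4, 3 of 4 knockout vehicle arrays were well above background, and it passed the background filter through wild type cells with vehicle alone. Its call is thus no support for the lower level, and no p-value is given.

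Of the 9 vehicle differences, 3 passed whichever array was left out, those of Kcnj15, Kcnj8 and Kcnj2. Under other alternatives these 3 were also lost. Kcnj15 did not pass on slide 1 or slide 2 alone (limma adjusted p = 0.0701 and 0.200), nor did Kcnj2 (0.187 and 0.0966). Kcnj8 did not pass on slide 1 alone (limma adjusted p = 0.251), and Kcnj2 not by the mean over its kept probes (0.17, 0.484). The Kcnmb1 call was lost without knockout vehicle replicate 2 or 4 or wild type vehicle replicate 1 or 4 (limma adjusted p = 0.0546 to 0.0838). That of Kcnc4, whose direction was built in by the filter, did not pass without replicates 2, 3 or 4 of either group (−0.98 to −0.71). That of Kcnn3 did not pass without knockout replicates 1, 2 or 4 or wild type replicates 2, 3 or 4 (−0.47 to −0.40, limma adjusted p = 0.0682 to 0.0986). Kcnk6 did not pass without knockout replicates 1 or 3 or wild type replicates 3 or 4 (−0.26 to −0.21, 0.0549 to 0.0649). Kcnn4 did not pass without knockout replicate 2 (−0.24, 0.0516), nor Kcnip3 without wild type replicate 3 (0.23, 0.0537).

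**Figure D4:**
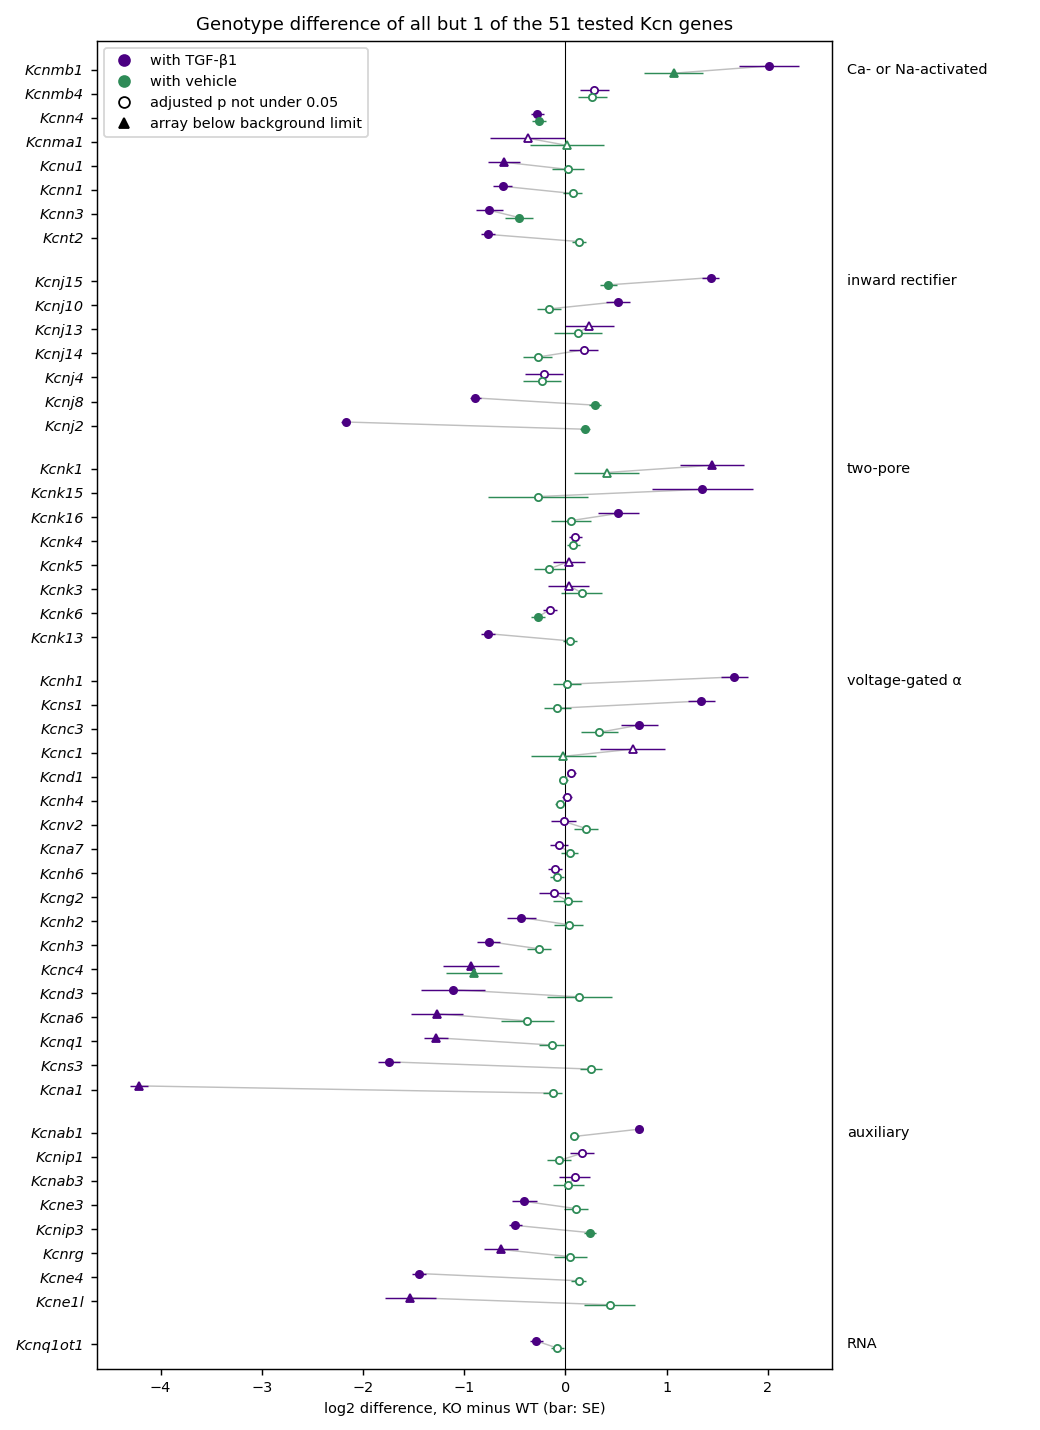
Log2 difference, knockout minus wild type, of all but 1 of the 51 tested Kcn genes with TGF-β1 (purple) and with vehicle (green), grouped by channel class. Bars are standard errors, triangles mark differences with an array below the background limit in a compared group, and open symbols mark adjusted p not under 0.05. The green circles lie within 0.46 of 0, and the purple circles run from −2.17 for Kcnj2 to 2.01 for Kcnmb1.

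The last comparison tested whether the response to TGF-β1 differed between the genotypes, from the same 16 arrays. It did for 23 Kcn genes or 45.1%, 5 more positive and 18 more negative in knockout cells, where 58.3% of all tested genes differed, 31.9% more positive and 26.5% more negative. By at least 2-fold there were 11, 3 more positive and 8 more negative, 21.6% of the 51 where 9.96% of all genes did, 3.25% more positive and 6.72% more negative. Of the 37 members measured on all 16 arrays, 8 did, or 21.6%, where 7.52% of the genes measured on all 16 arrays did. With normexp 17 of the 23 calls held in the same direction, and 3 of the 11 stayed past 2-fold. The more positive ones were Kcnh1, Kcns1, Kcnj15, Kcnj10 and Kcnab1. Of the called members, 21.7% were more positive, against 37.5% with quantile normalization, 46.2% with normexp background correction and 40% in the authors' deposited value table. Among all called genes the shares were 54.6%, 43.6%, 58.5% and 48.1% in the same order. Among the 8 members that passed for TGF-β1 in knockout cells alone, the difference between genotypes passed for Kcnh3, Kcnn1, Kcns1 and Kcnt2. Among the 4 that passed in wild type cells alone it passed for Kcne3 and Kcnj10. With normexp it did not pass for Kcnn1 and Kcne3 (limma adjusted p = 0.0991 and 0.0677) and passed for Kcnh3, Kcns1, Kcnt2 and Kcnj10.

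Partners of potassium channels outside the Kcn symbols formed a list of 12, of which 6 were tested. With TGF-β1, 1 rose and 4 fell in knockout cells, and 2 rose and 4 fell in wild type cells. These are 83.3% and 100% of the 6, where 82.6% and 68.6% of all genes changed. Besides Abcc9 and Amigo1, the other sulfonylurea receptor Abcc8 was at least 1.65-fold lower in wild type cells. Abcc8 passed the background filter through wild type cells with vehicle alone, so no p-value is given. Of 51 genes of ion pumps, calcium entry and related transport, 45 were tested. In knockout cells 13 rose and 22 fell with TGF-β1, a median log2 difference of −0.10, and in wild type cells 13 rose and 25 fell, a median of −0.18. These are 77.8% and 84.4% of the 45, where 82.6% and 68.6% of all genes changed. The calcium channel pore Cacna1d was lower with TGF-β1 by at least 3.91-fold in knockout cells, with 0 of 4 treated arrays well above background, and at least 4.12-fold lower in wild type cells, with 2 of 4. The sodium pump subunit Atp1b2 fell by at least 7.52-fold in knockout cells, with 3 of 4 treated arrays well above background, and fell by 0.50 on the log2 scale in wild type cells. The mechanically gated channel Piezo2 rose by 1.90 and 0.84 on the same scale. The Atp1b2 and Piezo2 differences passed by limma, with adjusted p-values up to 0.0103. Cacna1d passed the background filter through vehicle groups alone, so no p-value is given for it. Knockout against wild type cells differed in 32 of the 45 with TGF-β1, 17 higher and 15 lower, and in 7 with vehicle, 3 higher and 4 lower, 71.1% and 15.6% where 70.2% and 13.2% of all genes did.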

How the data were processed

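RNA was measured on 1-colour Agilent arrays of 4 groups with 4 arrays each. Per the file headers, the authors deposited spot intensity on a linear scale from Agilent Feature Extraction 11.0.1.1, which the submitters' processing notes also name, with background subtracted and spatial trend removed. A value table that the authors deposited holds log2 values and served as an alternative. It holds 9933 probes, which include 29 of the tested Kcn genes, 25 of them by the same probe. Its values correlated with the log2 intensity at r of at least 0.999, higher values are brighter probes, and it is not centred per probe. Its scaling and choice of probes are not given in the sources used here. Its column medians were 6.38 to 6.39 for knockout TGF-β1, 6.57 to 6.59 for knockout vehicle, 6.47 to 6.49 for wild type TGF-β1 and 6.60 to 6.61 for wild type vehicle.

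Spots that are not controls numbered 59305, for 56605 probes, and 0 spots were saturated. Processed intensities were log2 transformed, each array was shifted so that its 75th percentile matched, and spots of a probe were averaged. After 27 probes with outlier flags were left out, 33888 probes were kept, those that passed the scanner's background limit on each of the 4 arrays of 1 or more groups. Transcript accessions without version gave names to 32994 probes, and the brightest kept probe stood for each of 15394 genes. Of the 156 probes of Kcn genes the second kept probes, held by 8 members, were compared with the main ones. Levels were not compared between probes. The files' design is drawn on mm9, so coordinates are printed for the RefSeq promoter windows alone.

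The fit used limma 3.58.1 under R 4.3.3. It had 1 coefficient per group over 16 arrays and 2-sided moderated tests, and p-values were adjusted by Benjamini-Hochberg for the 15394 genes of each of the 5 comparisons. Values after ± are standard errors of a log2 difference unless SD is given. Where a gene was not well above background on every array of the dimmer group, the fold is a lower limit. It is the brighter group's mean over the dimmer group's mean of, per array, the higher of the gene's own signal and the lowest signal of any probe well above background. A p-value printed beside a lower limit is that of the fitted difference, which includes arrays below the background limit. The fit was tested on simulated data. The number of arrays limits the precision.

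The members, the gene lists (8 lists of cell markers, partners of potassium channels, and ion handling), the tests and the alternatives were chosen with earlier results of these data known. Values on every array were due to Kcnmb1, Kcnj8 and, in each comparison, up to 4 members with the largest positive and up to 4 with the largest negative difference among those past the test (and, between groups, without overlap). Any other member could be named with its difference. Kcnk15 falls outside this rule. Values of some members are not reported here.

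The files place the arrays on 2 slides, each holding replicates 1 and 2 or replicates 3 and 4 of every group, so slide and replicate number overlap. Alternatives were quantile normalization, normexp background correction with an offset of 50 on the median spot signal, the value table, other filters on dim probes, the mean over a gene's probes, slide or replicate number as a block, each slide alone, the spread of the compared groups alone, and leaving out each array.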

Additional observations from a re-analysis of the deposited data

Results flagged for a closer look

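In 4 of 88 groups of 4 arrays, 1 array of a described gene stood apart from the other three by Dixon's criterion, and chance gives about 1 in 20. They were Kcnj8 in wild type vehicle replicate 1 at a log2 signal of 10.50, Kcnk15 in knockout TGF-β1 replicate 1 at 7.95, Kcnk6 in wild type TGF-β1 replicate 1 at 9.20 and Kcns1 in knockout TGF-β1 replicate 2 at 7.00.

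The response to TGF-β1 differed between the genotypes, by limma's test of the difference itself, for these genes among others described above. It was more positive in knockout than in wild type cells for Kcnh1 (1.65), Kcns1 (1.42), Kcnj15 (1.01) and Kcnj10 (0.69). It was more negative for Kcna1 (−4.08), Kcnj2 (−2.37), Kcns3 (−2.00), Kcne1l (−1.97), Kcnj8 (−1.18) and Kcnip3 (−0.74). All values are log2 differences, and those of Kcna1 and Kcne1l include arrays below the background limit. For Kcnip3 the opposite directions in the 2 genotypes, not the sign of the difference in response, rest on 1 of its 2 kept probes.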

How the results depend on the processing

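Over the alternatives, 979 of 1046 values of the genes with the largest differences, Kcnmb1, Kcnj8, Kcnip3 and Kcnk15 kept their direction and their side of the threshold, 61 (of 16 results) kept the direction without passing, 5 (all the Kcnmb1 difference in response) newly passed, and 1 reversed: Kcnip3 in knockout cells, 0.39 in the authors' value table (limma adjusted p = 0.0497), which holds its other probe. Outside these, Kcnk6 in knockout cells also reversed there, to 1.05 (0.00192), by another probe that was not kept here. The numbers of Kcn genes called in the 5 comparisons (TGF-β1 in knockout, TGF-β1 in wild type, genotype with TGF-β1, genotype with vehicle, difference in response) were 42, 38, 33, 9 and 23. Leaving out 1 array gave 39 to 41, 36 to 38, 31 to 36, 5 to 8 and 22 to 26; the vehicle count was 5 without knockout replicate 2 or wild type replicate 3 or 4. In the value table, with 29 Kcn genes, 23 were called for TGF-β1 in wild type cells. For genotype with vehicle, slide 1 alone gave 2 and slide 2 alone 3, with fewer arrays. Quantile normalization gave 43, 37, 35, 8 and 24. With no filter on dim probes, 62, 53, 37, 6 and 23 of 98 were called. Deviations from the group mean correlated between same-numbered arrays at −0.03 to 0.22 (median 0.08), over 0.1 in 8 of 24 pairs. Differently numbered arrays were not compared, so the numbers were not shown to pair the arrays. The replicate block gave 42, 39, 35, 9 and 24 and the slide block 42, 39, 34, 9 and 24.

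The median TGF-β1 difference in knockout cells over all genes was 0.10, −0.01 under quantile normalization and −0.36 in the value table. Over Kcn genes it was −0.31, −0.29 under quantile normalization, −0.05 with normexp background correction and 0.21 with no filter on dim probes, so the sign of that median depends on the filter. Normexp made the fold smaller by over 1.5 times for 21, 9, 14, 2 and 10 of the called Kcn genes. It also turned 3 dim members, Kcnc1 in knockout cells (0.04) and Kcnc4 (0.11) and Kcnu1 (0.02) for genotype with TGF-β1, none of them past the test there. The mean over probes turned Kcnh4 in wild type cells (−0.06). Signal over background limits genes such as Kcnmb1 with vehicle and Kcna1 in knockout cells with TGF-β1, whose folds are lower limits.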
